A study of Arabidopsis thaliana with 36 samples.

Results

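Leaf and root of Arabidopsis thaliana do different work: the leaf captures light and fixes carbon, and the root takes up water and minerals and passes them to the shoot. The measurements below are RNA sequencing read counts per gene for leaves and roots of Columbia-0, the reference wild-type accession. They were chosen from the raw count table as the run columns that begin with CR (root) and CS (read here as leaf, since the sample labels give root and leaf as the tissues), without the columns whose names hold a T. That gave 18 of the 36 run columns of the series. The 3 run columns of each biological replicate were summed, which left 3 root and 3 leaf replicates, 6 of 12 in the series. The other 6 come from the mutant opt3-2, which is affected in the phloem transporter OPT3. They served here in the filter on low counts, the scaling and the estimate of the spread between replicates, and not in the contrast.

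All plants grew on agar plates for 11 days after 48 h of cold at 4 °C and then in aerated minimal hydroponic medium for 22 days, with a daily light period of 16 h and a dark period of 8 h. Each RNA sample came from 3 to 4 plants ground together, so a replicate is a pool and the spread between single plants was not measured. The labels describe the treatment in conflicting ways: the treatment label of every sample used reads as replete medium, while the protocol text shared by all samples tells of a transfer to 20 µM CdCl2 for 72 h before harvest. The files do not settle which holds for these columns. Treatment and harvest were at the same hour of the morning for both organs. The labels call the replicates biological and do not say whether they came from separate cultures. A p-value sets the organ difference against the spread between samples, estimated over all 12 replicates, and may not cover the spread between cultures.

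As background, a plant takes up mineral nutrients through transporters in the outer root cell layers, loads them into the xylem past the Casparian strip of the endodermis, and moves them to leaves, where cells import them again and the phloem sends part of them on. Iron enters Arabidopsis roots by reduction: acid and coumarins bring ferric iron into solution, the reductase FRO2 makes it ferrous, and IRT1 carries it into the cell. In leaves most iron and much copper and manganese serve the photosynthetic electron transport chain of the chloroplast.

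The 6 libraries held 25828387 to 30909804 counted reads in root and 23981444 to 30816450 in leaf. Levels are given as CPM, a share of the library scaled by TMM factors, and 3 values in a row are replicates 1, 2 and 3. A value with ± after a CPM is the mean with its SD over 3 replicates, a log2 fold change is that of leaf over root with its standard error, and p-values are from edgeR's quasi-likelihood test, adjusted by Benjamini-Hochberg over all 21692 genes tested. The 50 most abundant genes took 9.46 to 9.89% of root reads and 20.6 to 21.3% of leaf reads. Replicates of an organ correlated at r = 0.986 to 0.992 over genes (log2 CPM), and root with leaf at 0.555 to 0.577 in the 9 pairs.

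A gene is called different below where its adjusted p was under 0.05. By that rule 7860 genes were higher in leaf, 36.2% of those tested, and 8938 were higher in root, 41.2%. Past a 2-fold difference, tested with edgeR's glmTreat, 4295 genes (19.8%) were higher in leaf and 4099 (18.9%) were higher in root. At least 32-fold differences were found in 1261 genes toward leaf and 1359 toward root. With 77.4% of all genes called, a call alone says little about a gene, and the size of the difference carries more. Counts in the lists and families below are to be read beside these shares, 41.2% toward root and 36.2% toward leaf. The split depends on scaling: leaf held 46.8% of the calls with TMM, 38.4% with upper-quartile factors and 28.2% with library totals alone, a scaling that shifted the median gene by -0.52 on the log2 scale and turned 657 calls to the other direction. Past 2-fold the leaf share was 51.2% with TMM and 37.2% with library totals. Called genes named below whose direction turns under library totals are marked where they appear. Of the genes named as not called, FH, PYE, FER3, GSH1, ABCC1, SCR, SAND and GAPC2 had log2 values above 0 with TMM and were called toward root with library totals. Others had log2 values below 0. Of these, TCTP, PRXR1, ILR3, FRO4, MIT2, ZIP5, MSD1, GSH2, NIR1, APR3 and PIP1;2 were called toward root with upper-quartile factors (adjusted p = 0.000466 to 0.0362) and with library totals. HEMA2, NAS1, ZIP1 and ESB1 were called toward root with library totals. NRAMP4, URI, ABCC2, AMT2;1, PCS1, ZIP4 and UBQ10 kept their direction there and lost their call. Root replicates 1 and 2 and leaf replicate 3 carry run numbers 5 to 7 in their column names, and the other 3 carry 2 to 4; within the first set 14179 genes were called and within the second 14284, against 16798 over both. The reference genes used in qPCR stayed close: of 8, UBC9, TIP41L (AT4G34270), SAND (AT2G28390) and GAPC2 were not called. GAPC2 and SAND were called toward leaf without leaf replicate 3 (log2 0.30 and 0.19, adjusted p = 0.0141 and 0.0202), and GAPC2 also without leaf replicate 2 (log2 0.29, adjusted p = 0.0207). DESeq2 and voom called GAPC2 toward leaf too (log2 0.22 and 0.18, adjusted p = 0.0047 and 0.0275). With upper-quartile factors UBC9 and TIP41L were called toward root (log2 -0.25 and -0.33, adjusted p = 0.00866 and 0.000772). TIP41L was called toward root without root replicate 1 (log2 -0.20, adjusted p = 0.0183). The extremes were ACT2 at a log2 fold change of -0.71 and UBQ10 at 0.54.

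**Figure D1:**
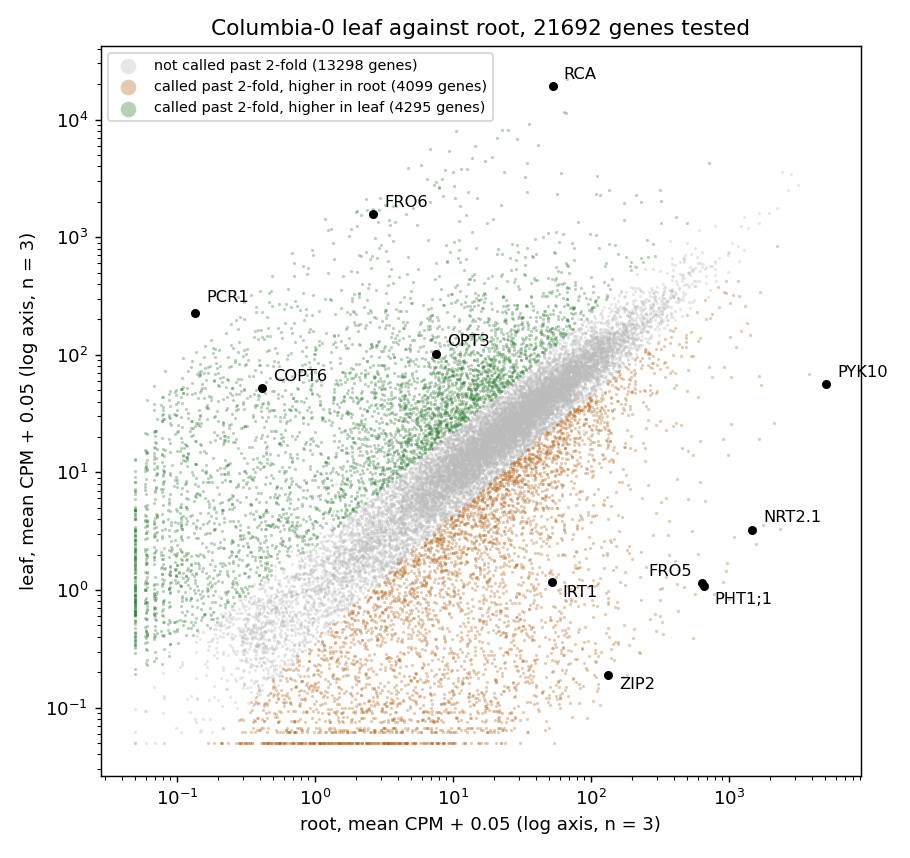
Mean expression of every tested gene in Columbia-0 root (x axis) and leaf (y axis), each the mean of 3 replicates on a log axis of CPM. The genes lie in a broad cloud around the diagonal with arms along both axes. The labelled genes FRO5 and PHT1;1 lie on the root side and FRO6 and RCA on the leaf side.

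The organ labels were checked with genes that mark organs and cell types. All 8 root hair genes were higher in root, with a summed level of 235 to 251 CPM in root and 1.38 to 1.51 CPM in leaf; EXPA7, a root hair expansin, had 2463 reads in root and 0 in leaf, at least 549.7-fold higher in root against a floor of 3 reads over the leaf group. CASP1, which builds the Casparian strip membrane domain, stood at 67.6, 99.9 and 78.9 CPM in root and 0.0504, 0.0891 and 0.0375 CPM in leaf. Of the 10 endodermis genes 8 were called toward root; ESB1 and SCR were not called, and SCR is a regulator that also acts in leaf bundle sheath. ESB1 shares 84.3% of its exon bases with another annotated gene, and without leaf replicate 2 it was called toward root (log2 -1.75, adjusted p = 0.0123). All 8 suberin genes were higher in root, with ASFT, the feruloyl transferase of suberin, at 124 ± 5.95 CPM in root against 2.58 ± 0.867 CPM in leaf. Toward leaf went all 12 stomatal lineage and guard cell genes, all 7 leaf polarity and chloroplast regulators and 11 of 12 cuticle and wax genes. FMA, the factor that completes guard cell formation, had 3 reads in root and 1949 in leaf, a ratio of 970.4 times (95% interval 332 to 4709), counting error only. GLK1, an activator of chloroplast genes, stood at 0.550, 1.07 and 0.708 CPM in root and 339, 333 and 332 CPM in leaf. In tissue pools, fewer cells of a type and less RNA per cell cannot be told apart, and this holds for every difference below.

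Photosynthesis genes differed widely between the organs. All 34 nuclear genes of the photosystems, their antennae and the cytochrome complex were higher in leaf, with a median log2 fold change of 8.42 (the median over all genes tested was -0.061), and together they held 438 to 640 CPM in root against 151264 to 161701 CPM in leaf. LHCB1.3, a main antenna protein of photosystem II, stood at 101, 41.2 and 60.6 CPM in root and 21069, 22921 and 22167 CPM in leaf, a log2 fold change of 8.35 ± 0.54 (adjusted p = 2.56e-08). Rubisco activase, RCA, stood at 52.0, 45.5 and 61.3 CPM in root and 20835, 19491 and 17517 CPM in leaf. Root replicate 2 was the lowest of the roots for both, and no root value came near a leaf value. RBCS1A, a Rubisco small subunit gene, stood at 35.7 ± 10.12 CPM in root against 9139 ± 1243 CPM in leaf. The copies LHCB1.1, LHCB1.2 and LHCB1.3 share 25.1 to 32.1% of their 31-base words with other places in the genome, so reads may have been split among them.

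Of 25 genes of the Calvin cycle and photorespiration, 24 were higher in leaf (median 8.18) and GLYK, the glycerate kinase that ends photorespiration, was higher in root, at 407 ± 97.6 CPM in root against 237 ± 15.6 CPM in leaf. Transketolase TKL1 differed least among the 24, at 412 ± 19.1 CPM in root against 1485 ± 164 CPM in leaf, log2 1.85 ± 0.10. Of 17 chlorophyll and haem genes 15 were higher in leaf and none in root. CHLH, the large subunit of magnesium chelatase, stood at 26.3, 19.8 and 24.2 CPM in root and 3999, 3524 and 3284 CPM in leaf. HEMA2 and FC1, the forms of glutamyl-tRNA reductase and ferrochelatase known from non-green tissue, were not called; HEMA2 stood at 29.5 ± 7.14 CPM in root against 26.4 ± 1.71 CPM in leaf. Their green partners HEMA1 (log2 3.62 ± 0.20) and FC2 (log2 3.97 ± 0.11) were both higher in leaf.

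Plastid electron carriers showed an exchange of isoforms, with 7 of 10 genes higher in leaf and 3 in root. The leaf ferredoxin FD2 stood at 23.3, 20.4 and 23.03 CPM in root and 1849.9, 2056 and 1738 CPM in leaf. The root ferredoxin FD3 stood at 151, 147 and 147 CPM in root and 17.4, 15.6 and 16.2 CPM in leaf; the log2 fold changes were 6.40 ± 0.15 and -3.18 ± 0.07. The reductases followed the same pattern: FNR1 and FNR2, which pass electrons from ferredoxin to NADP+ in leaves, were higher in leaf (log2 6.42 and 8.72), and RFNR1 and RFNR2, which run in reverse to feed ferredoxin in roots, were higher in root (log2 -0.84 and -3.54). Plastocyanin, the copper protein between the cytochrome complex and photosystem I, is encoded by PETE1 and PETE2. PETE2 stood at 8.28 ± 1.33 CPM in root against 3148 ± 432 CPM in leaf, and PETE1 at 0.810 ± 0.290 CPM in root against 217 ± 22.1 CPM in leaf.

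**Figure D2:**
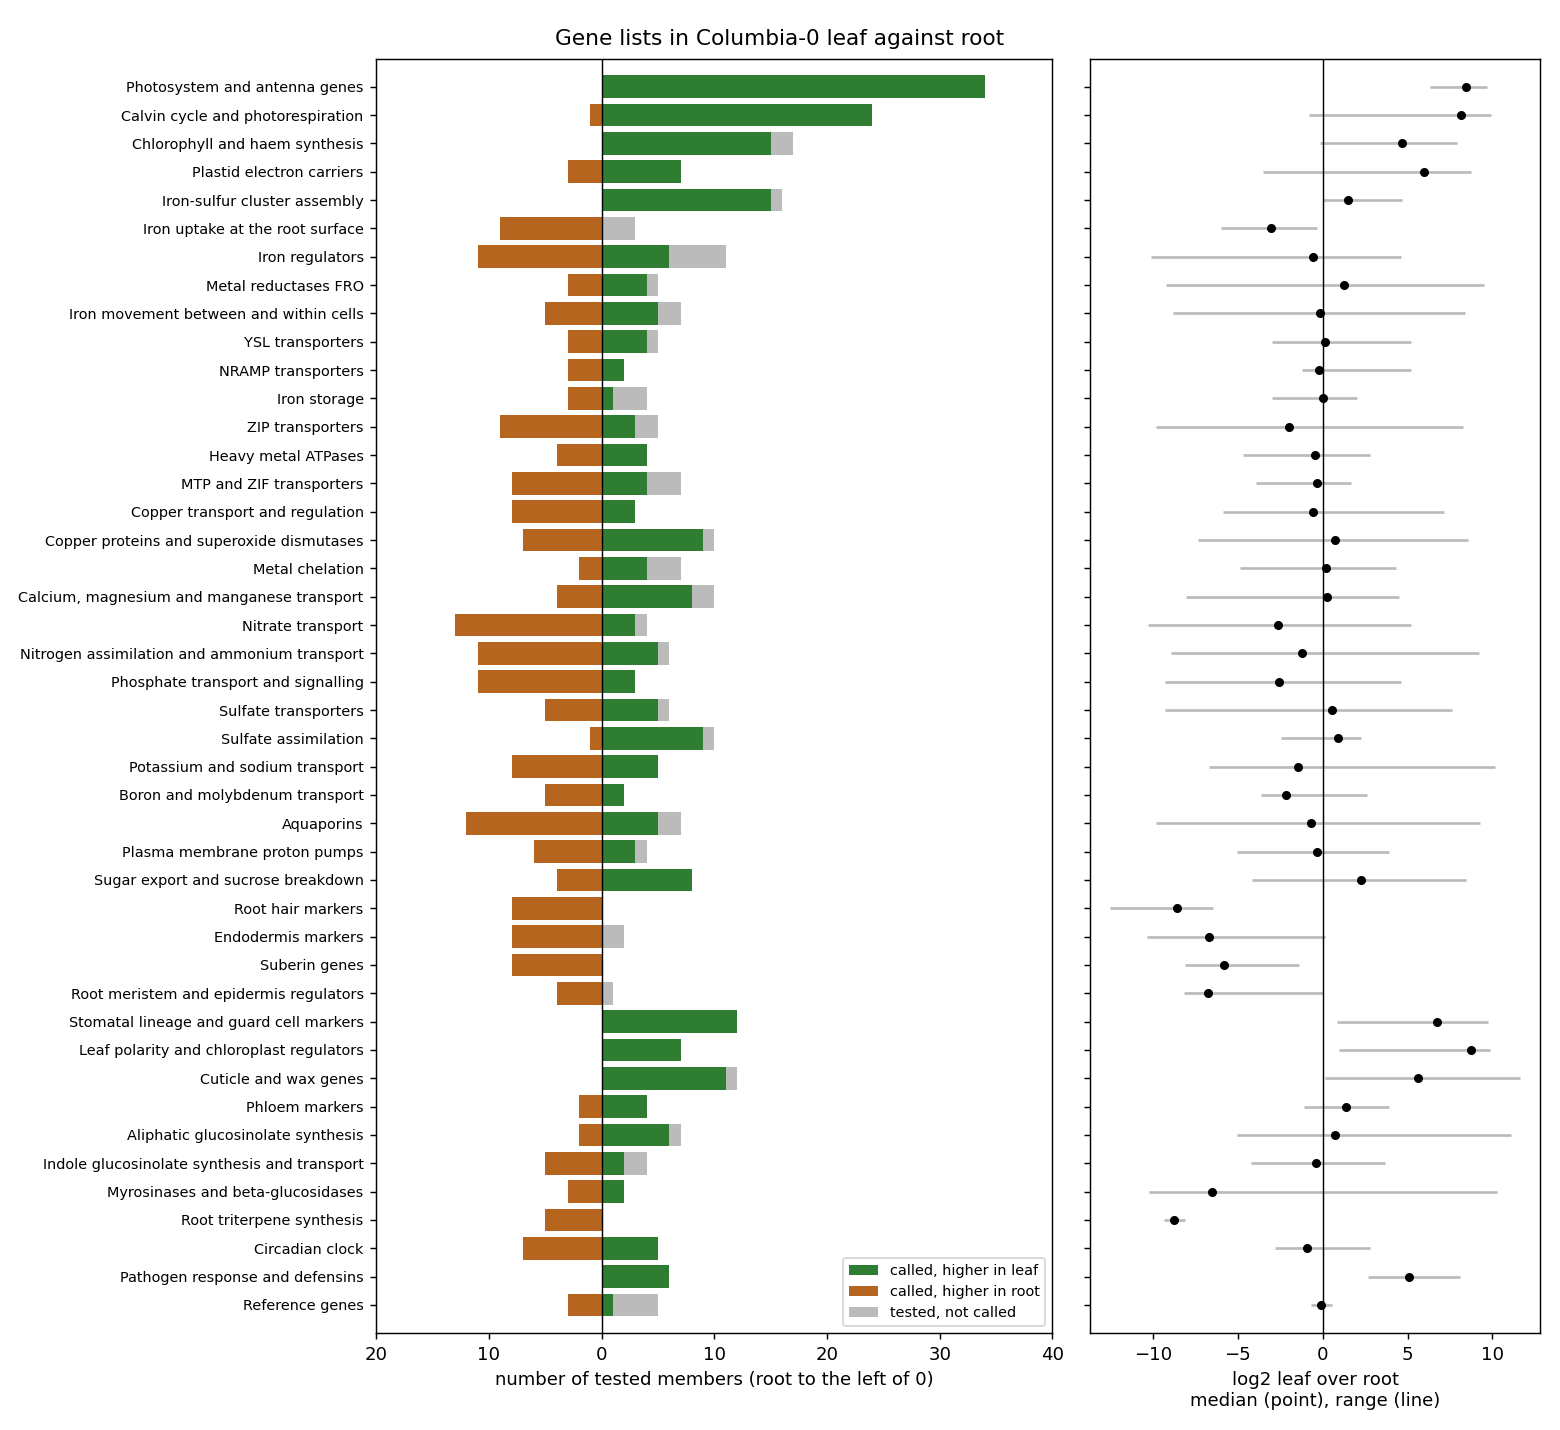
Left, number of tested members of each of the 44 gene lists called higher in leaf (right of 0), called higher in root (left of 0) or not called. Right, the median log2 fold change of leaf over root (point) with the range of the members (line); photosystem genes sit at 8.42 and root hair genes at -8.57.

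Iron-sulfur clusters carry electrons in photosystem I and in respiration, and 15 of 16 tested assembly genes were higher in leaf, with a median of 1.51. Of these, ISU1 and NFS1, of the mitochondrial pathway, took the other sign under library totals. There NFS1 was called toward root and ISU1 was not called. The call of NFS1 (log2 0.21 ± 0.07) was lost without root replicate 3 (log2 0.18, adjusted p = 0.0797) and with upper-quartile factors (log2 0.02, adjusted p = 0.794). The plastid SUF scaffold gene SUFB stood at 76.4, 65.4 and 59.9 CPM in root and 261, 268 and 276 CPM in leaf, log2 2.00 ± 0.08. HCF101, which places clusters in photosystem I, had the widest difference of the list, at 5.66 ± 0.363 CPM in root against 147 ± 10.09 CPM in leaf. The mitochondrial frataxin FH was not called, at 12.97 ± 0.533 CPM in root against 13.2 ± 0.273 CPM in leaf.

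The iron uptake genes leaned the other way. Of 12 tested genes, 9 were higher in root, 3 were not called and none was higher in leaf, with a median of -3.04. IRT1 (AT4G19690, chr4:10707344-10709015), the main ferrous iron importer, stood at 49.0, 67.6 and 40.2 CPM in root and 1.81, 0.668 and 0.863 CPM in leaf, log2 -5.59 ± 0.31 (adjusted p = 5.79e-09). FRO2, its partner reductase, stood at 54.5, 72.1 and 45.3 CPM in root and 5.49, 4.81 and 4.46 CPM in leaf, log2 -3.55 ± 0.23. The lowest root value exceeded the highest leaf value for both. IRT2, a close relative of IRT1, had 316 reads in root and 3 in leaf, a ratio of 70.5 times (95% interval 23.9 to 344), counting error only.

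The genes that acidify the root surface and release coumarins leaned the same way. AHA2, the plasma membrane proton pump that acidifies the soil around the root, stood at 1478, 1348 and 1426 CPM in root and 160.1, 131 and 150.5 CPM in leaf, log2 -3.27 ± 0.14. F6'H1, the hydroxylase that starts coumarin synthesis, stood at 162, 157 and 141 CPM in root and 5.94, 5.30 and 8.93 CPM in leaf. PDR9, an ABC transporter that exports coumarins, stood at 157 ± 13.02 CPM in root against 4.32 ± 0.227 CPM in leaf, log2 -5.18 ± 0.25. S8H (AT3G12900), which turns scopoletin into fraxetin, was low in both organs at 3.96, 7.41 and 1.42 CPM in root and 1.06, 0.445 and 0.413 CPM in leaf. It was called toward root, log2 -2.80 ± 0.59; without root replicate 2 the value was -2.14, and the call was lost within runs 2 to 4 (log2 -0.94, adjusted p = 0.206). CYP82C4, which makes sideretin from fraxetin, was low in root, at 1.45, 0.803 and 0.386 CPM, and was not called; it was called toward root without root replicate 3 (log2 -1.56, adjusted p = 0.0141), with upper-quartile factors (adjusted p = 0.0255) and by DESeq2 (adjusted p = 0.0347). The transcription factor MYB72 was near the limit of detection in root, at 0.0579, 0.241 and 0 CPM, and was not called. COSY (AT1G28680) shares 73.9% of its exon bases with another annotated gene and MYB72 shares 74.0%; reads there cannot be told apart unless the counting used strand, which no source used here states.

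The iron regulators were divided between the organs, with 11 of 22 tested higher in root, 6 in leaf and 5 not called. FIT, the bHLH factor required for induction of FRO2 and IRT1, stood at 84.4, 83.4 and 66.3 CPM in root and 1.81, 2.405 and 2.03 CPM in leaf, log2 -5.22 ± 0.17 (adjusted p = 4.74e-11). Of its subgroup Ib partners, BHLH39 stood at 5.70, 5.22 and 3.44 CPM in root and 0.806, 0.445 and 0.150 CPM in leaf and BHLH38 at 3.30, 4.15 and 2.09 CPM in root and 1.96, 0.935 and 0.338 CPM in leaf, both called toward root, while BHLH100 and BHLH101 were not called. For BHLH38 the log2 fold change of -1.64 ± 0.48 became -2.30 without leaf replicate 1, and the call was lost within runs 2 to 4 (log2 -0.55, adjusted p = 0.394). The subgroup IVa factors, which promote FIT breakdown, were a root set: BHLH20 stood at 82.3 ± 6.62 CPM in root against 5.84 ± 1.71 CPM in leaf, and BHLH18 and BHLH25 had 0 reads in leaf, at least 76.5-fold and 104-fold higher in root. The fourth, BHLH19, was not called.

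The hemerythrin ubiquitin ligases, which lower the iron response, split by organ as well. BTSL1 (AT1G74770) stood at 107, 104 and 95.8 CPM in root and 1.31, 0.623 and 0.375 CPM in leaf, log2 -7.11 ± 0.36, and BTSL2 (AT1G18910) at 82.1 ± 2.77 CPM in root against 12.005 ± 0.161 CPM in leaf, both toward root. BTS, their relative, was higher in leaf, at 66.5, 59.9 and 61.6 CPM in root and 131, 112 and 109 CPM in leaf, log2 0.91 ± 0.10. Of the subgroup IVc and related factors, BHLH115 was higher in root (log2 -2.40 ± 0.07) and BHLH104 slightly so (log2 -0.55 ± 0.07), URI (0.64) and BHLH34 (0.88) were higher in leaf, and ILR3 and PYE were not called, at log2 -0.03 ± 0.06 and 0.03 ± 0.21. The peptides IMA1, IMA2 and IMA3, which promote the iron deficiency response, were higher in leaf but low: IMA3 (AT2G30766) stood at 0.289, 0.348 and 0.418 CPM in root and 6.95, 3.74 and 1.8005 CPM in leaf. IMA1 (AT1G47400) and IMA2 (AT1G47395) had mean leaf levels of 0.734 and 1.297 CPM.

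**Figure D3:**
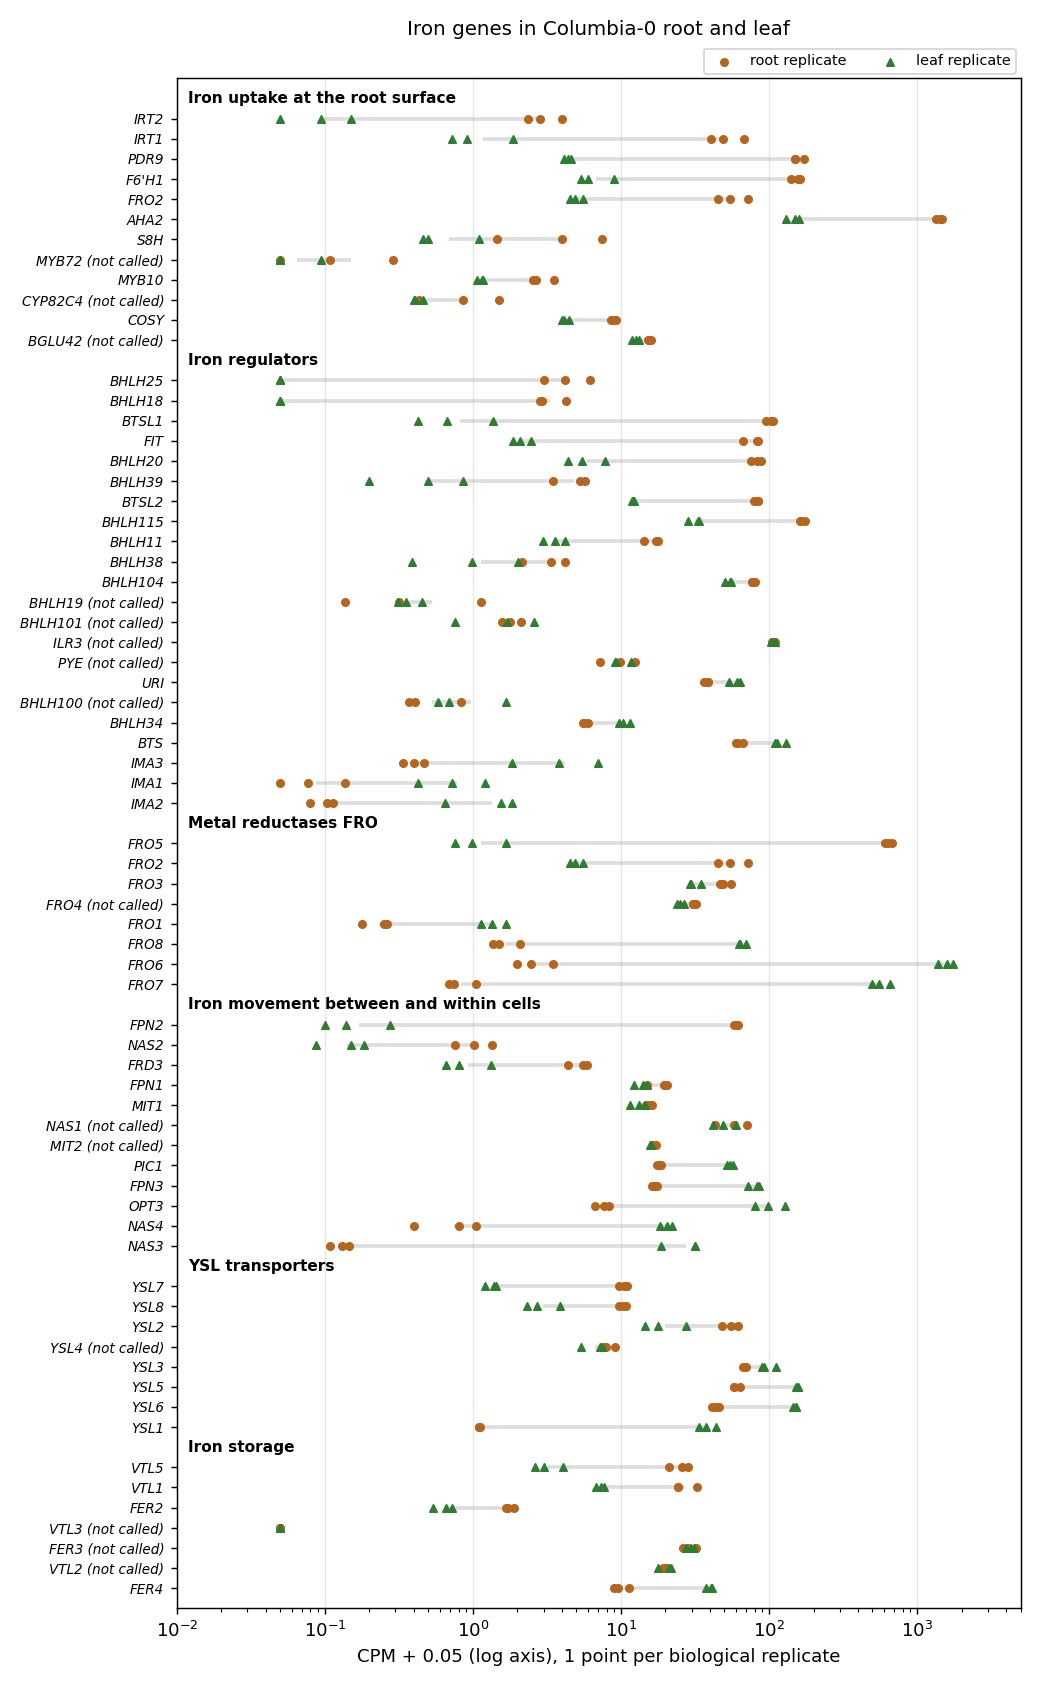
CPM (log axis, with 0.05 added) of the tested iron genes in 3 root replicates (circles) and 3 leaf replicates (triangles) of Columbia-0, ordered within each list by log2 fold change of leaf over root. FRO5, FIT and IRT1 lie high in root, FRO6, FRO7 and NAS3 lie high in leaf, and for these 6 no replicates of the organs overlap.

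The ferric and cupric reductases of the FRO family divided by organ. FRO5, a root copper reductase, stood at 681, 638 and 605 CPM in root and 1.61, 0.713 and 0.938 CPM in leaf, log2 -9.23 ± 0.32 (adjusted p = 6.7e-11). FRO6, a plasma membrane reductase of shoots, stood at 2.43, 1.93 and 3.44 CPM in root and 1739, 1601 and 1394 CPM in leaf, log2 9.25 ± 0.22. FRO7, the chloroplast reductase, stood at 0.694, 0.642 and 0.997 CPM in root and 658, 553 and 499.6 CPM in leaf, log2 9.52 ± 0.24. The lowest FRO6 leaf replicate, 1394 CPM, lay far above the highest root replicate, 3.44 CPM. FRO8, of mitochondria, followed FRO6 and FRO7 at 1.59 ± 0.379 CPM in root against 65.3 ± 4.07 CPM in leaf, whereas FRO3, also mitochondrial, was higher in root, at 50.05 ± 4.41 CPM in root against 31.3 ± 3.06 CPM in leaf, a call lost within runs 2 to 4 (log2 -0.53, adjusted p = 0.0703). FRO4, the neighbour of FRO5, was not called, at 31.2 ± 0.655 CPM in root against 25.2 ± 1.57 CPM in leaf, but was called toward root in a fit of the Columbia-0 libraries alone (log2 -0.26, adjusted p = 0.00567). In all, 4 of 8 were higher in leaf, 3 in root and 1 was not called. FRO6 and FRO7 share 23.0% and 30.3% of their 31-base words with other places in the genome and lie side by side on chromosome 5, so part of each count may belong to the other.

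Because FRO2 and FRO5 lay on the root side and the neighbours FRO6 and FRO7 on the leaf side, the 250 bases before the annotated start of 4 FRO genes are shown with the same stretch of RBCS2B, a Rubisco small subunit gene that serves as a leaf example. The sequences are from the RefSeq copy of TAIR10.1, read 5′ to 3′ on the strand of the gene: FRO6 at chr5:20204596-20204845 on the minus strand, FRO7 at chr5:20208778-20209027 minus, FRO2 at chr1:208745-208994 plus, FRO5 at chr5:8108643-8108892 minus and RBCS2B at chr5:15382072-15382321 minus. Capitals mark CACGTG (the G-box core, bound by bHLH and bZIP factors), GATAAG or its reverse complement CTTATC (the I-box) and GTAC (the core bound by SPL7, the copper response factor).
FRO6: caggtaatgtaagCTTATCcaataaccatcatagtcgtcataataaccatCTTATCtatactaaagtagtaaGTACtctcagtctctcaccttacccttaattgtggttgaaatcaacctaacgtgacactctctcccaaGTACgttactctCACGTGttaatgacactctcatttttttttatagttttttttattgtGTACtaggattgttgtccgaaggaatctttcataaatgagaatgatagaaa
FRO7: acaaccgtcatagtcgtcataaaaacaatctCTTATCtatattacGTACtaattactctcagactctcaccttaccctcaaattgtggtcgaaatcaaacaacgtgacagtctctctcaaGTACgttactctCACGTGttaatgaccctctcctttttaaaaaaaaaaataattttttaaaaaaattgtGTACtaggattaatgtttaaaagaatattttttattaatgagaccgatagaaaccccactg
FRO2: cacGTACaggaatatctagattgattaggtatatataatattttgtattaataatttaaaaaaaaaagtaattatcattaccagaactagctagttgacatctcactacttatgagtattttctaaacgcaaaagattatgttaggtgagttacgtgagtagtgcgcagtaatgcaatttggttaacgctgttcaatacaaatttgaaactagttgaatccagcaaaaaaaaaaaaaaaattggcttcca
FRO5: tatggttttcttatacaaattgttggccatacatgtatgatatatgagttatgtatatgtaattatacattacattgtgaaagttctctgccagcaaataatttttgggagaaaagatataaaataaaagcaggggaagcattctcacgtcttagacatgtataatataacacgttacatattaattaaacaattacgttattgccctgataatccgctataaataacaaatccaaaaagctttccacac
RBCS2B: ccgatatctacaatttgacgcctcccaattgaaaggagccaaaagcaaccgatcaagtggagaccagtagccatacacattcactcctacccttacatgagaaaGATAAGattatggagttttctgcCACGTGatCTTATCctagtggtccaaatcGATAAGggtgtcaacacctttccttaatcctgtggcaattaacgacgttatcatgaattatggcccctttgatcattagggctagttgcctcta
FRO6 and FRO7 both hold CACGTG, an I-box and 3 GTAC cores, and their longest shared run is 29 bases, which includes the CACGTG. The longest run shared between any other pair of the 4 FRO windows was 13 bases (FRO7 with FRO2). FRO5 holds none of the 3 motifs in this window and FRO2 holds 1 GTAC. Each motif was searched on both strands, CACGTG and GTAC read the same on both, and none of the 3 contains another. Over the windows of all 26710 protein-coding genes matched, 6.58% hold CACGTG, 12.2% an I-box and 34.4% GTAC; among genes higher in leaf past 2-fold the shares were 8.58%, 15.1% and 36.9%, and among those higher in root 5.99%, 11.3% and 35.1%. Of the 34 photosystem genes 5 hold CACGTG and 10 an I-box, and of the 12 iron uptake genes none holds either. At the shares over all genes, a count of 0 among 12 says little. The lists of an organ were not alike. Of the 10 plastid electron carriers 0 hold CACGTG and 2 an I-box, and of the 17 chlorophyll and haem genes 3 and 1. Of the 22 iron regulators, of which 11 were called toward root, 5 hold CACGTG and 1 an I-box. In the list that RBCS2B belongs to, the 25 Calvin cycle and photorespiration genes, 4 hold CACGTG and 4 an I-box. Of all 8 FRO genes 2 hold CACGTG, 3 an I-box and 3 GTAC. A match describes letters in the window and is no evidence of binding.

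Transporters that move iron after uptake were divided, 5 of 12 higher in leaf, 5 in root and 2 not called. OPT3 (AT4G16370, chr4:9247302-9250343), which loads iron into the phloem and is the gene disrupted in the mutant of this series, stood at 7.70, 6.64 and 8.20 CPM in root and 128, 97.8 and 80.7 CPM in leaf, log2 3.76 ± 0.17 (adjusted p = 7.51e-10). The leaf replicates were spread from 80.7 to 128 CPM, all far above root. Among the synthases of nicotianamine, the chelator that carries metals through phloem, NAS3 stood at 0.0579, 0.0803 and 0.0965 CPM in root and 18.6, 31.8 and 31.8 CPM in leaf and NAS4 at 0.699 ± 0.328 CPM in root against 20.3 ± 1.83 CPM in leaf, both toward leaf. NAS2 was higher in root at a low level, 0.991 ± 0.298 CPM in root against 0.0906 ± 0.0488 CPM in leaf, and NAS1 was not called at 57.1 ± 13.8 CPM in root against 50.1 ± 8.95 CPM in leaf.

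FPN2, a vacuolar transporter of the ferroportin family, stood at 58.4, 61.5 and 60.7 CPM in root and 0.0504, 0.0891 and 0.225 CPM in leaf, log2 -8.81 ± 0.29 (-9.57 without leaf replicate 3). FPN1, which loads iron and cobalt into the vasculature, differed little, at 18.4 ± 2.90 CPM in root against 13.7 ± 1.38 CPM in leaf, and its call toward root was lost without leaf replicate 1 or leaf replicate 3 (log2 -0.36 to -0.27, adjusted p = 0.0539 to 0.103). FPN3, of plastids and mitochondria, was higher in leaf, at 16.9 ± 0.640 CPM in root against 80.5 ± 7.14 CPM in leaf, as was PIC1, a permease of the chloroplast envelope, at 18.01 ± 0.635 CPM in root against 54.6 ± 2.51 CPM in leaf. FRD3, which effluxes citrate into the xylem, was higher in root, at 5.21 ± 0.801 CPM in root against 0.879 ± 0.352 CPM in leaf. The mitochondrial importers MIT1 (AT2G30160) and MIT2 (AT1G07030) differed little, MIT1 at 15.4 ± 0.782 CPM in root against 13.04 ± 1.44 CPM in leaf and MIT2 at 16.6 ± 0.388 CPM in root against 15.8 ± 0.149 CPM in leaf. MIT1 was called toward root by a small margin, log2 -0.24 ± 0.09, and lost the call without root replicate 1, root replicate 3, leaf replicate 1 or leaf replicate 3 (log2 -0.24 to -0.08, adjusted p = 0.0528 to 0.432).

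Of 8 YSL transporters, which carry metals bound to nicotianamine, 4 were higher in leaf and 3 in root. YSL1, which moves metals out of leaves, stood at 1.04, 1.04 and 1.06 CPM in root and 33.6, 37.7 and 44.1 CPM in leaf, log2 5.19 ± 0.14, and YSL2 stood at 54.9 ± 6.78 CPM in root against 19.9 ± 6.71 CPM in leaf, toward root. YSL3, which acts with YSL1, was higher in leaf by log2 0.51 ± 0.12, and turned to -0.0015 under library totals. YSL5 and YSL6 were also higher in leaf, at log2 1.38 and 1.78, and YSL7 and YSL8 in root, at log2 -2.99 and -1.79.

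Among NRAMP transporters, NRAMP1, which takes up manganese and iron at the root surface, stood at 150.3, 129 and 131 CPM in root and 56.96, 61.1 and 60.4 CPM in leaf, log2 -1.20 ± 0.09. NRAMP6, an intracellular member, was a leaf gene at 0.289, 0.562 and 0.322 CPM in root and 14.6, 14.9 and 15.3 CPM in leaf. NRAMP4, a vacuolar exporter, was higher in leaf (log2 0.69 ± 0.09), and its partner NRAMP3 was higher in root (log2 -0.35 ± 0.09), as was NRAMP2 (log2 -0.21 ± 0.08). The call of NRAMP2 was lost without root replicate 1, root replicate 2, leaf replicate 1, leaf replicate 2 or leaf replicate 3 (log2 -0.20 to -0.11, adjusted p = 0.0631 to 0.233). That of NRAMP3 was lost without leaf replicate 1 or leaf replicate 2 (log2 -0.27 to -0.25, adjusted p = 0.0505 to 0.0602). Neither NRAMP2 nor MIT1 was called by DESeq2 (adjusted p = 0.0715 and 0.0728).

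Iron storage gave a short list. FER4, a ferritin of plastids and mitochondria, was higher in leaf, at 9.43, 8.94 and 11.3 CPM in root and 37.5, 40.3 and 41.3 CPM in leaf, and FER3 was not called, at 28.98 ± 2.88 CPM in root against 29.6 ± 1.81 CPM in leaf. The ferritin FER2 was called toward root (log2 -1.55, adjusted p = 3.65e-05). VTL1 and VTL5, relatives of the vacuolar importer VIT1, were higher in root, with VTL1 at 26.9 ± 4.77 CPM in root against 7.22 ± 0.455 CPM in leaf and VTL5 at 25.1 ± 3.60 CPM in root against 3.19 ± 0.744 CPM in leaf. FER1, the ferritin usually described as the main one of leaves, was listed with 1 read in root and 0 in leaf, and VIT1, VTL3 (AT3G43630) and VTL4 (AT3G43660) were also at or near 0. The exons of FER1 share no base with another annotated gene and no 31-base word with another place in the genome; why it is listed at 0 was not tested.

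The ZIP family, importers of zinc, iron and manganese, leaned to root, with 9 of 14 tested higher in root, 3 in leaf and 2 not called, and a median of -1.98. ZIP2, of the root stele, stood at 148, 126 and 129 CPM in root and 0.101, 0.134 and 0.188 CPM in leaf, log2 -9.82 ± 0.23 (adjusted p = 3.08e-12). ZIP3 followed at 37.1, 31.96 and 34.6 CPM in root and 0.101, 0.178 and 0.0750 CPM in leaf. ZIP2 was the ZIP gene with the highest level per length in root, at 93.2 CPM per kb against 33.4 for IRT1. Toward leaf went ZIP7, with 2 reads in root and 508 in leaf and a ratio of 379 times (95% interval 104 to 3141), counting error only, and ZIP11, at 8.68 ± 1.51 CPM in root against 36.4 ± 1.81 CPM in leaf. ZIP4, a zinc deficiency gene, was higher in leaf by log2 0.62 ± 0.15, a call lost within runs 5 to 7 (log2 0.31, adjusted p = 0.175); ZIP1 and ZIP5 were not called, at log2 -0.09 ± 0.11 and -0.24 ± 0.14, and ZIP5 was called toward root without root replicate 3 or leaf replicate 3 (log2 -0.35 and -0.33, adjusted p = 0.0456 and 0.0445). The zinc sensor BZIP19, a factor that activates ZIP genes, was higher in root, at 73.9 ± 5.05 CPM in root against 31.6 ± 0.654 CPM in leaf, and its partner BZIP23 was not called.

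The 8 heavy metal ATPases were all called, 4 in each direction. HMA4, which loads zinc and cadmium into the xylem, stood at 170.5, 165 and 179.9 CPM in root and 32.5, 35.7 and 38.4 CPM in leaf, log2 -2.27 ± 0.08. HMA2, which shares that role in roots, was higher in leaf, at 35.4, 28.5 and 29.6 CPM in root and 96.1, 93.5 and 81.5 CPM in leaf, log2 1.54 ± 0.10. HMA3, a vacuolar pump known to be non-functional in Columbia-0, was a root transcript at 12.8 ± 1.61 CPM in root against 0.487 ± 0.123 CPM in leaf. HMA5, which exports copper in roots, stood at 66.8, 58.1 and 57.1 CPM in root and 2.32, 2.63 and 3.19 CPM in leaf, and RAN1, which supplies copper to ethylene receptors, at 491 ± 33.0 CPM in root against 118 ± 9.64 CPM in leaf. The pumps of the chloroplast went the other way: PAA1 of the envelope stood at 21.6, 18.8 and 21.1 CPM in root and 67.2, 63.8 and 58.9 CPM in leaf, PAA2 of the thylakoid at 20.8, 18.1 and 19.5 CPM in root and 121, 154 and 131 CPM in leaf, and HMA1 of the envelope at 35.9 ± 0.813 CPM in root against 79.2 ± 3.43 CPM in leaf.

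Among 15 MTP, ZIF and related genes 8 were higher in root and 4 in leaf. MTP3, which stores zinc in root vacuoles, stood at 19.96, 20.7 and 18.5 CPM in root and 1.76, 1.60 and 1.88 CPM in leaf, log2 -3.49 ± 0.13, and MTP1, the constitutive vacuolar zinc importer, differed less, at 95.0 ± 0.926 CPM in root against 63.4 ± 3.67 CPM in leaf. MTP11, a Golgi manganese exporter, was higher in leaf, at 21.7 ± 1.31 CPM in root against 64.6 ± 4.36 CPM in leaf, as was ZIF1, which moves nicotianamine into vacuoles, at 27.3 ± 1.79 CPM in root against 60.5 ± 6.53 CPM in leaf. MTP8, a vacuolar manganese importer, was low, with 51 reads in root and 2 in leaf.

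**Figure D4:**
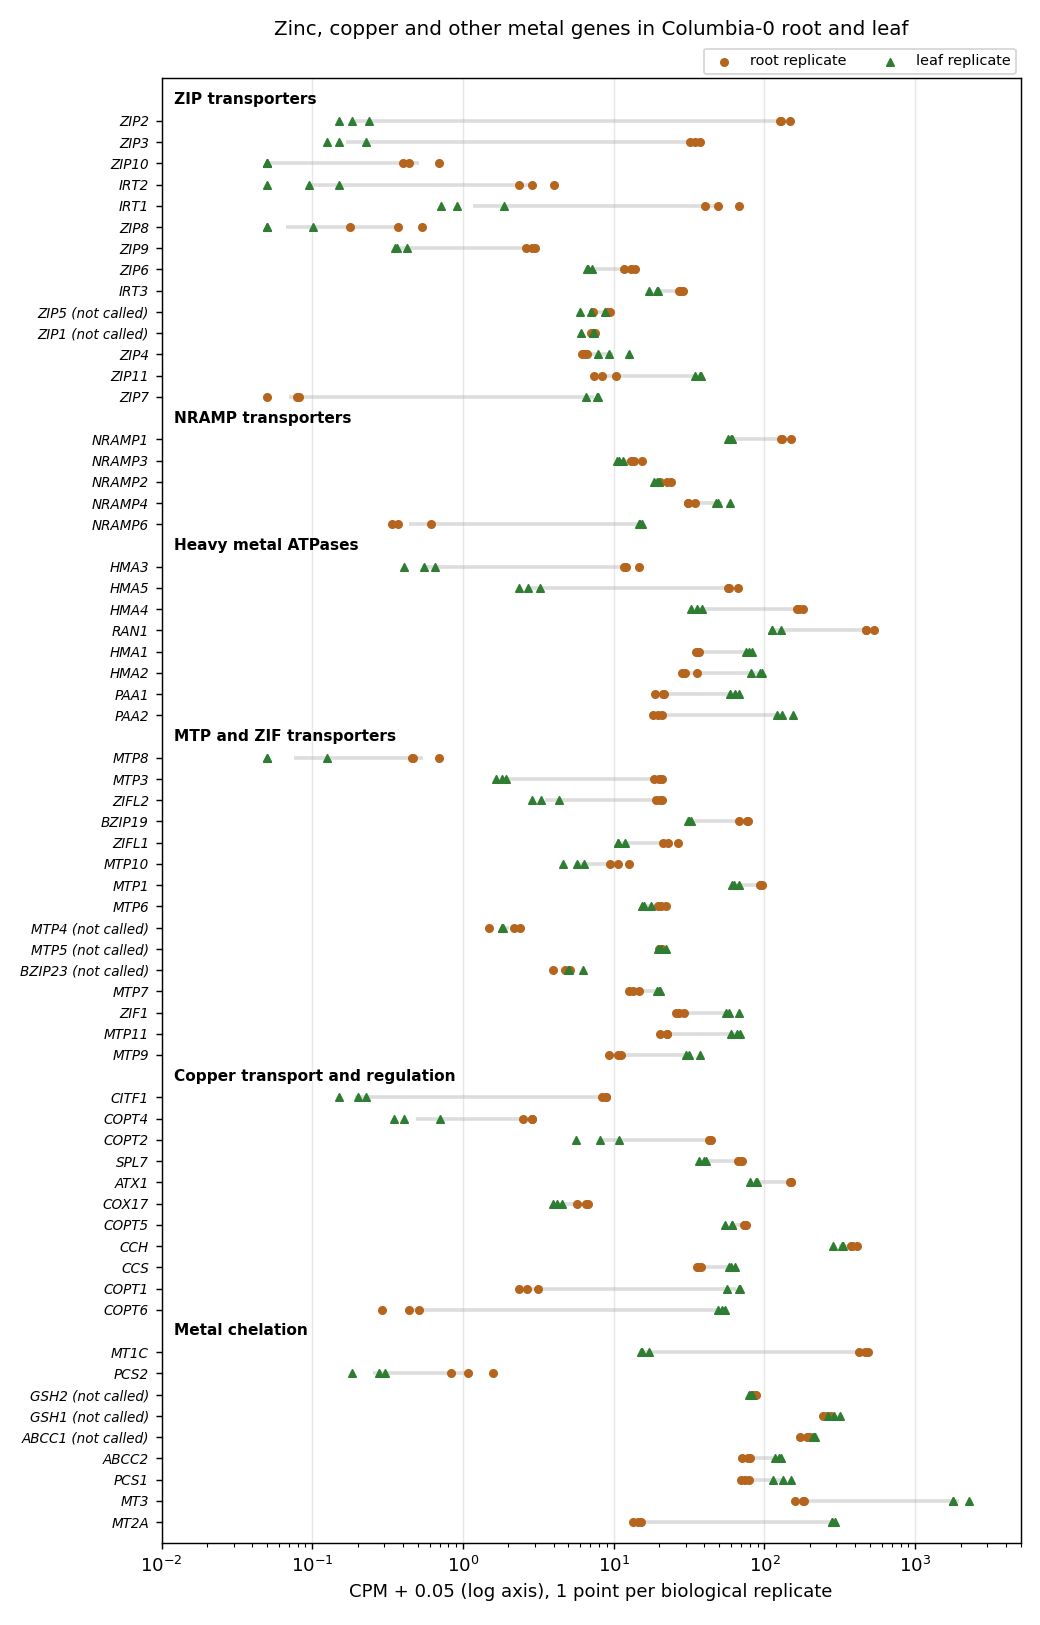
CPM (log axis, with 0.05 added) of tested ZIP, NRAMP, heavy metal ATPase, MTP and ZIF, copper and chelation genes in 3 root replicates (circles) and 3 leaf replicates (triangles). ZIP2, ZIP3 and HMA3 lie on the root side, ZIP7, COPT6 and NRAMP6 on the leaf side, and the replicates of the organs do not overlap for these 6.

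Of 11 tested genes of copper transport 8 were called toward root and 3 toward leaf, with a median of -0.58. Past 2-fold the counts were 3 toward root and 2 toward leaf, and the importers were split. COPT2, induced by copper and iron shortage, stood at 44.4, 43.6 and 42.7 CPM in root and 10.8, 8.10 and 5.55 CPM in leaf, log2 -2.43 ± 0.18. COPT1 and COPT6, plasma membrane importers, were higher in leaf; COPT1 stood at 2.604, 3.08 and 2.32 CPM in root and 68.8, 68.0 and 56.2 CPM in leaf, log2 4.59 ± 0.11. COPT6 stood at 0.463, 0.241 and 0.386 CPM in root and 52.4, 55.0 and 49.4 CPM in leaf, log2 7.17 ± 0.19. CITF1 (AT1G71200), a bHLH factor of copper shortage, was a root gene at 8.28, 8.81 and 8.81 CPM in root and 0.101, 0.178 and 0.150 CPM in leaf, and SPL7, the general copper response factor, was higher in root (log2 -0.81 ± 0.07). The chaperone ATX1 was higher in root, at 149 ± 0.753 CPM in root against 85.8 ± 4.87 CPM in leaf, and CCS, which delivers copper to superoxide dismutase, in leaf, at 36.5 ± 1.19 CPM in root against 60.6 ± 2.90 CPM in leaf. The call of CCH, another chaperone (log2 -0.30 ± 0.11), was lost without root replicate 1, leaf replicate 1, leaf replicate 2 or leaf replicate 3 (log2 -0.27 to -0.17, adjusted p = 0.0681 to 0.221).

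Of 17 copper proteins and superoxide dismutases 9 were higher in leaf and 7 in root. All 3 copper-zinc dismutases were higher in leaf, CSD1 at 63.2 ± 2.52 CPM in root against 136 ± 5.81 CPM in leaf, CSD2 of the chloroplast at 42.6 ± 1.304 CPM in root against 157 ± 4.66 CPM in leaf and CSD3 of the peroxisome at 10.3 ± 1.36 CPM in root against 24.2 ± 0.907 CPM in leaf. FSD1, an iron dismutase, was high in both organs and higher in leaf, at 370.5, 372 and 376 CPM in root and 1006, 966 and 798 CPM in leaf, log2 1.31 ± 0.26. MSD1, the manganese dismutase of mitochondria, was not called, at 118 ± 5.13 CPM in root against 114 ± 4.16 CPM in leaf. Laccases, copper oxidases that polymerise lignin, made up most of the root side: LAC3, which acts at the Casparian strip, stood at 65.2, 71.1 and 63.0 CPM in root and 0.0504, 0.445 and 0.638 CPM in leaf, and LAC4, of xylem fibres and vessels, at 90.4 ± 7.59 CPM in root against 28.3 ± 2.21 CPM in leaf.

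Metallothioneins exchanged members. MT1C stood at 485, 423 and 465 CPM in root and 15.2, 17.2 and 15.4 CPM in leaf, log2 -4.84 ± 0.10. MT2A stood at 15.1, 14.5 and 13.3 CPM in root and 279, 281 and 294 CPM in leaf, log2 4.31 ± 0.15. MT3 stood at 183, 179 and 159 CPM in root and 1785, 2277 and 1780.3 CPM in leaf, log2 3.49 ± 0.16. MT1A, MT2B, MT4A and MT4B were listed at 0 in every library; all exon bases of MT1A lie within another annotated gene, and MT2B, MT4A and MT4B share none. PCS1, the phytochelatin synthase that makes cadmium-binding peptides, was higher in leaf, at 70.3, 78.99 and 74.1 CPM in root and 133, 149.5 and 113 CPM in leaf, log2 0.82 ± 0.17, a call lost within runs 5 to 7 (log2 0.60, adjusted p = 0.0640). GSH1 and GSH2, which make glutathione, its substrate, were not called, with GSH1 at 260.4 ± 16.6 CPM in root against 289 ± 25.6 CPM in leaf and GSH2 at 85.6 ± 2.27 CPM in root against 80.97 ± 1.86 CPM in leaf. GSH1 lay near the threshold: it was called toward leaf by DESeq2 (log2 0.19, adjusted p = 0.0170) and without root replicate 2, leaf replicate 2 or leaf replicate 3 (log2 0.20 to 0.28, adjusted p = 0.0047 to 0.0411). ABCC2, a vacuolar phytochelatin transporter, was higher in leaf (log2 0.69 ± 0.12) and its partner ABCC1 was not called (log2 0.18 ± 0.08). ABCC1 too lay near the threshold and was called toward leaf by DESeq2 (log2 0.21, adjusted p = 0.0307) and without root replicate 1, leaf replicate 2 or leaf replicate 3 (log2 0.23 to 0.26, adjusted p = 0.0392 to 0.0466). The difference between ABCC2 and ABCC1 was not tested.

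For calcium, magnesium and manganese, 8 of 14 genes were higher in leaf and 4 in root; MGT2 and MGT3 among the 8 turned to root under library totals. CAX1, the vacuolar calcium exchanger of leaf mesophyll, stood at 41.3, 34.6 and 43.5 CPM in root and 727, 766 and 662 CPM in leaf, log2 4.17 ± 0.10. CAX3 was also higher in leaf, at 4.42 ± 0.795 CPM in root against 44.8 ± 9.41 CPM in leaf, and CAX4 was a root gene, at 28.3 ± 2.15 CPM in root against 0.0969 ± 0.0901 CPM in leaf. PAM71 (AT1G64150), a thylakoid cation transporter, stood at 1.39, 1.26 and 1.03 CPM in root and 27.8, 30.7 and 25.7 CPM in leaf, and MGT10, a chloroplast magnesium transporter, at 14.9 ± 0.736 CPM in root against 53.0 ± 1.81 CPM in leaf.

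Nitrate transport genes leaned to root. Of 17 tested genes 13 were higher in root, 3 in leaf and 1 was not called, with a median of -2.60. NRT2.1, the main high-affinity nitrate importer, stood at 1612, 1308 and 1526 CPM in root and 3.63, 2.81 and 3.19 CPM in leaf, log2 -8.85 ± 0.29 (adjusted p = 4.19e-11). Its required partner NRT3.1 stood at 569.8, 422 and 541 CPM in root and 14.8, 13.4 and 16.95 CPM in leaf. NRT1.5, which loads nitrate into the xylem, stood at 1146, 746 and 1221 CPM in root and 25.6, 27.7 and 24.4 CPM in leaf, log2 -5.32 ± 0.21. NRT1.1, the transporter that also senses nitrate, stood at 724 ± 85.0 CPM in root against 78.1 ± 11.5 CPM in leaf. NRT2.4 had 523 reads in root and 0 in leaf, at least 117-fold higher in root.

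The 3 leaf members have roles in distribution within the shoot. NRT1.11, which moves nitrate from xylem to phloem in leaves, stood at 4.86, 8.73 and 6.11 CPM in root and 272, 252 and 211 CPM in leaf, log2 5.22 ± 0.23; NRT1.7, which loads it from old leaves into phloem, at 1.21 ± 0.515 CPM in root against 34.6 ± 2.35 CPM in leaf; and NRT1.4, of the petiole, at 10.12 ± 1.28 CPM in root against 214 ± 11.3 CPM in leaf. CLCA, the vacuolar nitrate exchanger, differed little, at 339.8 ± 6.97 CPM in root against 273 ± 14.6 CPM in leaf, and its call was lost without leaf replicate 3 (log2 -0.20, adjusted p = 0.0716).

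Nitrogen assimilation genes included several pairs of isoforms that differed in opposite directions. Nitrate reductase NIA1 stood at 1444, 1289 and 1331 CPM in root and 207, 167 and 186 CPM in leaf, log2 -2.86 ± 0.13. NIA2 stood at 241, 170.1 and 278 CPM in root and 2174, 2027 and 1763 CPM in leaf, log2 3.11 ± 0.20. NIR1, the single nitrite reductase, was not called, at 419, 369 and 364 CPM in root and 401, 319 and 323 CPM in leaf, and its replicates in the organs overlapped. Glutamine synthetase of the chloroplast, GLN2, stood at 175 ± 1.38 CPM in root against 1401 ± 94.7 CPM in leaf, and the cytosolic GLN1;1 at 491 ± 15.1 CPM in root against 138 ± 18.5 CPM in leaf. Ferredoxin glutamate synthase GLU1, the photorespiratory form, stood at 3.12, 2.44 and 4.02 CPM in root and 2105, 1826 and 1742 CPM in leaf, log2 9.22 ± 0.19. GLU2 stood at 363, 323 and 325 CPM in root and 92.4, 74.5 and 90.7 CPM in leaf, log2 -1.97 ± 0.12. The ammonium transporter AMT1;3 was a root gene at 233, 184 and 198 CPM in root and 0.554, 0.356 and 0.338 CPM in leaf, and AMT2;1 was higher in leaf, at 20.2 ± 0.672 CPM in root against 32.2 ± 2.11 CPM in leaf. In all 11 of 17 were higher in root and 5 in leaf. GDH1 among the 5 took the other sign under library totals and was not called there. AMT1;1 shares 98.4% of its exon bases with another annotated gene.

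Phosphate transport leaned the same way, with 11 of 14 tested higher in root, 3 in leaf and a median of -2.59. PHT1;1, the main phosphate importer, stood at 768, 609 and 594 CPM in root and 0.755, 1.113 and 1.24 CPM in leaf, log2 -9.28 ± 0.25. PHT1;2 stood at 239, 181 and 182 CPM in root and 0.302, 0.356 and 0.375 CPM in leaf. These copies share 49.9% and 53.2% of their 31-base words with other places in the genome, so the division between them is uncertain. PHO1, which exports phosphate to the xylem, stood at 825, 680.1 and 779.9 CPM in root and 60.2, 64.4 and 68.4 CPM in leaf, log2 -3.56 ± 0.10. PHT2;1, the chloroplast phosphate importer, went toward leaf, at 21.5, 18.4 and 17.9 CPM in root and 535, 470.4 and 401 CPM in leaf, log2 4.61 ± 0.13. PHO2, the ubiquitin-conjugating enzyme that limits phosphate uptake, was higher in root, at 686 ± 67.3 CPM in root against 405 ± 6.94 CPM in leaf, and PHF1, which lets PHT1 proteins leave the endoplasmic reticulum, at 53.5 ± 1.82 CPM in root against 13.4 ± 1.60 CPM in leaf. SPX1 and SPX3, which rise in phosphate-starved plants, were low, SPX1 at 10.3 ± 1.47 CPM in root against 7.79 ± 0.519 CPM in leaf, a call that was lost without leaf replicate 1 (log2 -0.29, adjusted p = 0.0556). SPX3 had too few reads to be tested.

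**Figure D5:**
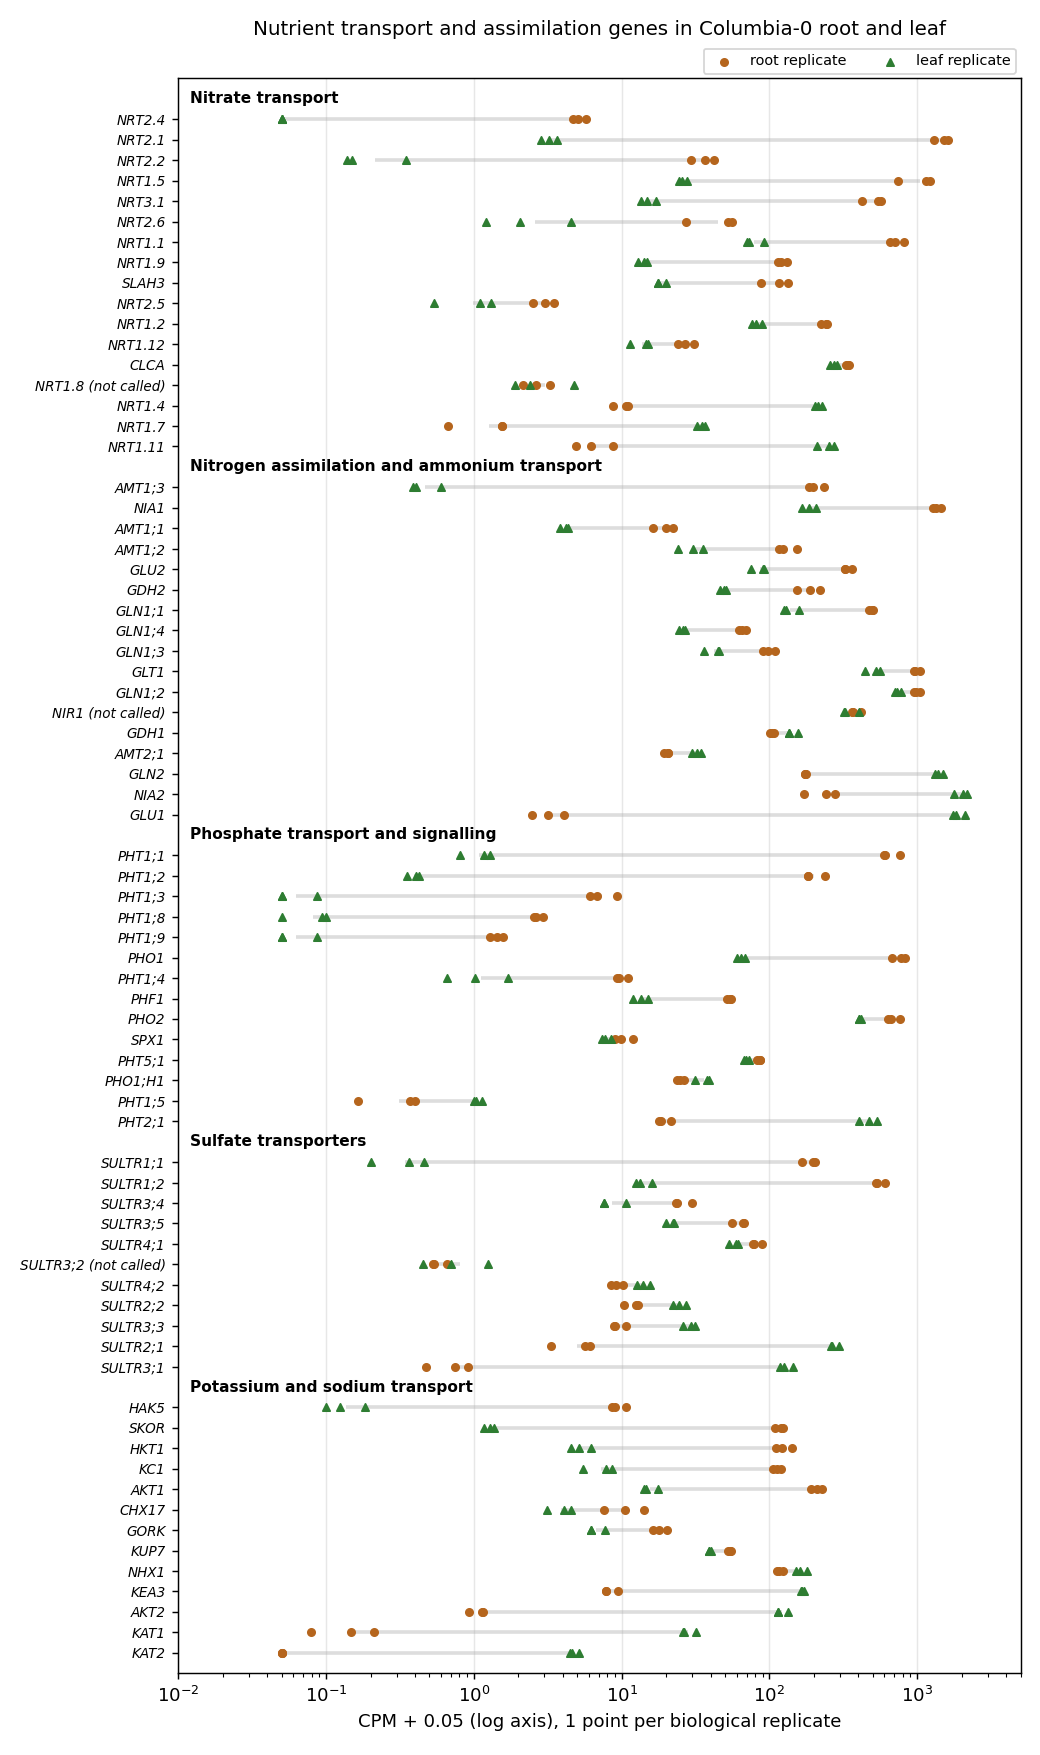
CPM (log axis, with 0.05 added) of tested nitrate, nitrogen assimilation, phosphate, sulfate and potassium genes in 3 root replicates (circles) and 3 leaf replicates (triangles). Pairs such as NIA1 and NIA2, GLU2 and GLU1, PHT1;1 and PHT2;1, SULTR1;1 and SULTR3;1, and SKOR and AKT2 lie on opposite sides.

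Sulfate uptake and sulfate reduction were divided between the organs. The uptake transporter SULTR1;1 stood at 202, 166 and 198 CPM in root and 0.151, 0.312 and 0.413 CPM in leaf, log2 -9.26 ± 0.38. Its partner SULTR1;2 stood at 605, 522 and 533 CPM in root and 13.3, 15.99 and 12.4 CPM in leaf, log2 -5.32 ± 0.14. SULTR2;1, of vascular tissue, was higher in leaf, at 6.08, 3.27 and 5.56 CPM in root and 261, 294 and 266 CPM in leaf. SULTR3;1, of the chloroplast envelope, was too, at 0.694, 0.428 and 0.868 CPM in root and 145, 125 and 117 CPM in leaf. Of 11 transporters 5 were higher in each organ. Of 11 assimilation genes 9 were higher in leaf. SIR and OASA1 among the 9 took the other sign under library totals and were not called there. The ATP sulfurylase APS1 stood at 614 ± 40.5 CPM in root against 1158 ± 112 CPM in leaf and APS4 went the other way, at 534 ± 23.7 CPM in root against 97.5 ± 4.59 CPM in leaf. APR2, the main APS reductase, stood at 88.2, 74.9 and 65.3 CPM in root and 253, 293 and 215 CPM in leaf, log2 1.73 ± 0.16, and APR3 was not called.

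Potassium genes were split, 8 of 13 higher in root and 5 in leaf. AKT1, the uptake channel, stood at 228, 190.2 and 209 CPM in root and 14.7, 14.1 and 17.6 CPM in leaf, log2 -3.76 ± 0.11. SKOR, which releases potassium into the xylem, stood at 123, 109 and 119 CPM in root and 1.31, 1.113 and 1.24 CPM in leaf, log2 -6.58 ± 0.14. AKT2, of the phloem, stood at 1.0995, 0.883 and 1.09 CPM in root and 133, 115 and 114 CPM in leaf, log2 6.88 ± 0.19. KAT1, an inward channel of guard cells, stood at 0.0953 ± 0.0658 CPM in root against 28.1 ± 3.24 CPM in leaf (log2 8.12 ± 0.23, and 8.76 without root replicate 2), and KAT2 had 0 reads in root and 326 in leaf, at least 162-fold higher in leaf. HKT1, which retrieves sodium from the xylem, was higher in root, at 125 ± 16.1 CPM in root against 5.26 ± 0.857 CPM in leaf, and KEA3, a thylakoid exchanger, in leaf at 8.33 ± 0.907 CPM in root against 167 ± 4.15 CPM in leaf. NHX1, a sodium and potassium exchanger of the vacuole, was called toward leaf at log2 0.48. It took the other sign under library totals and was not called there.

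Boron and molybdenum transporters were higher in root in 5 of 7 cases. NIP5;1, the boric acid channel of the root surface, stood at 111, 95.9 and 99.9 CPM in root and 22.1, 21.4 and 25.1 CPM in leaf. NIP6;1, which passes boric acid to young leaves, stood at 14.3, 9.23 and 10.4 CPM in root and 74.4, 70.3 and 62.3 CPM in leaf. MOT1, the molybdate importer, stood at 55.0 ± 9.17 CPM in root against 5.40 ± 0.417 CPM in leaf. BOR1, the xylem loader of borate, was called toward leaf at 64.8 ± 4.69 CPM in root against 78.0 ± 3.20 CPM in leaf, and the call turned to root under library totals and was lost without root replicate 1 or root replicate 2 (log2 0.23 to 0.24, adjusted p = 0.0786 to 0.0936). MOT2 lies wholly within the exons of another annotated gene.

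Aquaporins, channels for water, leaned to root, with a median log2 fold change of -0.71. Of 19, 12 were higher in root, 5 in leaf and 2 not called, against 41.2% and 36.2% of all genes tested. Past 2-fold, 9 were higher in root and 3 in leaf. TIP2;3, a vacuolar aquaporin, stood at 321, 344 and 341 CPM in root and 0.504, 0.312 and 0.300 CPM in leaf, log2 -9.83 ± 0.18. PIP2;4, of the plasma membrane, stood at 166, 231 and 167 CPM in root and 2.01, 2.54 and 2.36 CPM in leaf. PIP2;6 was the leaf counterpart, at 0.550, 0.642 and 0.579 CPM in root and 372, 387 and 333 CPM in leaf, log2 9.25 ± 0.12. PIP1;2 was not called, at 1651 ± 112 CPM in root against 1609.6 ± 129 CPM in leaf, and PIP2;1 was among the 8 highest genes per kilobase in root, at 1248 CPM per kb in root and 1023 CPM per kb in leaf. Its call toward root (log2 -0.29 ± 0.10) was lost without root replicate 1, leaf replicate 2 or leaf replicate 3 (log2 -0.24 to -0.12, adjusted p = 0.0823 to 0.321). PIP1;5 and PIP2;7 were called toward leaf and took the other sign under library totals. There PIP2;7 was called toward root and PIP1;5 was not called. The call of PIP1;5 was lost without root replicate 1, root replicate 3 or leaf replicate 2 (log2 0.27 to 0.36, adjusted p = 0.0605 to 0.127), and that of PIP2;7 without root replicate 1, root replicate 3 or leaf replicate 2 (log2 0.22 to 0.28, adjusted p = 0.0526 to 0.120).

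Proton pumps of the plasma membrane power these transporters. AHA1 was high in both organs, at 1002 ± 69.1 CPM in root against 745 ± 15.7 CPM in leaf. AHA7, like AHA2 above, was higher in root, at 62.7, 64.5 and 68.5 CPM in root and 1.96, 1.87 and 2.03 CPM in leaf. AHA3, a phloem pump, and AHA11 were higher in leaf, with AHA3 at 28.6, 26.8 and 27.4 CPM in root and 381, 452 and 422 CPM in leaf, log2 3.92 ± 0.09. Of 10 tested, 6 were higher in root and 3 in leaf.

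Of 12 genes of sugar export, starch and sucrose breakdown 8 were higher in leaf and 4 in root. SUC2, the phloem sucrose loader, stood at 43.5, 41.8 and 50.3 CPM in root and 315, 353 and 344 CPM in leaf, log2 2.90 ± 0.09. SWEET11, which exports sucrose from leaf phloem parenchyma, stood at 2.199, 6.48 and 1.51 CPM in root and 163, 202 and 176 CPM in leaf; root replicate 2 stood above the other roots for SWEET11, whose log2 fold change was 5.71 ± 0.42 with it and 6.59 without it. SPS4F, a sucrose phosphate synthase, and GBSS1, the granule starch synthase, were higher in leaf at log2 6.96 ± 0.20 and 8.47 ± 0.19. CINV1, a cytosolic invertase that breaks sucrose down, was higher in root, at 534 ± 24.6 CPM in root against 157 ± 6.46 CPM in leaf, as was the sucrose synthase SUS4 at 23.5 ± 2.18 CPM in root against 1.33 ± 0.395 CPM in leaf.

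Among genes with a mean of at least 50 CPM over the 6 libraries, the highest log2 fold change belonged to PCR1, PLANT CADMIUM RESISTANCE 1 (AT1G14880, chr1:5132506-5133860), a small membrane protein named for cadmium resistance. It stood at 0.0868, 0.107 and 0.0643 CPM in root and 149, 254 and 273 CPM in leaf, log2 11.27 ± 0.45 (adjusted p = 2.56e-10); leaf replicate 1 was the lowest leaf, and no root replicate exceeded 0.107 CPM. PCR2, its neighbour on chromosome 1 and a zinc exporter, went the other way, with a mean of 185 CPM in root and 7.81 in leaf, and was looked at after the values were seen. The myrosinase TGG1, the gibberellin-regulated GASA6 at 0.226 ± 0.0567 CPM in root against 312 ± 24.7 CPM in leaf, the antenna gene Lhca6 at 0.111 ± 0.0732 CPM in root against 118 ± 15.6 CPM in leaf and PCC1 at 0.259 ± 0.0935 CPM in root against 283 ± 68.2 CPM in leaf were also among the 10 highest. At the root end stood AIR1, an auxin-induced gene of lateral root formation, at 526, 694 and 422 CPM in root and 0.353, 0.178 and 0.488 CPM in leaf, log2 -10.61 ± 0.34, the class III peroxidase AT3G01190 at 981, 1076 and 947 CPM in root and 0.755, 0.623 and 0.975 CPM in leaf, and CYP702A5 at 226 ± 22.5 CPM in root against 0.239 ± 0.157 CPM in leaf. PCC1 shares 46.6% of its 31-base words and AIR1 20.1% with other places in the genome.

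Per kilobase of exon, the 8 most abundant root genes were DR4, PYK10, TCTP, MLP328, PRXR1, MLP34, PIP2;1 and UBQ10. PYK10, the beta-glucosidase of root endoplasmic reticulum bodies, had 2829 CPM per kb in root and 31.01 CPM per kb in leaf, and the proteinase inhibitor homologue DR4 had 3463 CPM per kb in root and 61.9 CPM per kb in leaf. MLP328 and MLP34, major latex proteins, were root genes, MLP34 at 2531, 2165 and 2409.8 CPM in root and 2.82, 3.30 and 3.71 CPM in leaf. TCTP and PRXR1 were high in both organs and not called, PRXR1 at 3159 ± 85.1 CPM in root against 2762 ± 286 CPM in leaf. The 8 most abundant leaf genes were 6 antenna genes, RCA and RBCS1A, with LHCB1.3 at 54.9 CPM per kb in root and 17929 CPM per kb in leaf.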

How the data were processed

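RNA from roots and leaves was sequenced from Illumina TruSeq libraries. The submitters' processing notes name TopHat2, edgeR and the build TAIR10, without versions. The counting program, gene annotation and strand setting were not given in any source used. The authors deposited raw read counts per gene for 28775 genes; the file also holds 36 columns with a T in the name, which match no sample label and were not used. All 36 columns used are runs, summed to 12 replicates after runs of a replicate were found to differ by little more than sampling noise (chi-square per degree of freedom 1.02 to 1.07, against 3.26 to 77.8 between replicates).

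From these counts, genes with enough reads (edgeR's filterByExpr, 21692 kept) were scaled by TMM and fitted with edgeR 4.0.16 (quasi-likelihood F test, glmTreat past 2-fold) in R 4.3.3, with a mean for each of 4 groups over 12 libraries and 8 residual degrees of freedom. The threshold was an adjusted p of 0.05. A standard error is the log2 fold change divided by the root of F. The procedure was tested on simulated data in which few genes differed between the organs. That setting cannot test the scaling in data where most genes differ. Bounds use a floor of 3 reads over a group, and 95% intervals of read ratios are exact; both cover counting error only. Names, exon lengths and sequences are from RefSeq TAIR10.1, which matched 28009 gene IDs. Exon overlap and 31-base words repeated in the genome were computed from it; they describe what could be shared, since the authors' annotation may differ.

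The gene lists and the comparison were chosen with earlier results of these data known. A member of the potassium list is not reported here and is not in its counts. Genes named are the 10 highest and 10 lowest called past 2-fold with a mean of 50 CPM or more, the 2 highest and 2 lowest called in each list, any member of the metal and nutrient lists, the 8 highest per kilobase in each organ, and OPT3. List members named in the other lists outside that rule, PCR2 and the family members were chosen after their values were seen. Alternatives were other scalings, no filter, the Columbia-0 libraries alone, DESeq2 1.42.0, limma voom (limma 3.58.1), a replicate block, the run sets, single runs and leaving out each replicate.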

Additional observations from a re-analysis of the deposited data

How the results depend on the processing

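The counts of genes called (16798) and called past 2-fold (8394) stayed within 1.5 times of these values under every alternative run. The counts ranged from 14179 (within runs 5 to 7) to 18460 (library totals only) and from 7574 (the highest run of each replicate only) to 9371 (library totals only) past 2-fold. Leaving out each replicate gave 15977 to 16341 called and 8209 to 8375 past 2-fold. DESeq2 called 16576 and voom 16727. A fit of the Columbia-0 libraries alone, with its own filter and scaling, tested 21203 genes and called 8037 toward leaf and 8500 toward root. Among the listed genes, PIP2;1, MIT1, NRAMP2, AHA8 and PP2AA3 lost their calls in that fit, and BGLU42, FRO4, ABCC1 and SCR gained one. Root and leaf samples of the same replicate number did not deviate together (r = -0.11, -0.04 and -0.13). Those pairs all came from different run sets, while pairs within a run set had r of 0.0068 to 0.11. The correlations therefore cannot show whether the numbers pair plants. The number was left out of the main fit because the labels do not say that it marks the same plants. The replicate block gave 16434 calls, 16256 of them shared with the fit without it, and 8364 past 2-fold. With so many genes at this depth, what the files limit is genes with few reads, whose fold changes rest on bounds. Under library totals only, whose construction shifts all log2 values down, the log2 fold change took the other sign for ISU1 (-0.086), NFS1 (-0.31), FH (-0.49), PYE (-0.49), YSL3 (-0.0015), FER3 (-0.49), VTL2 (-0.49), MTP5 (-0.51), GSH1 (-0.37), ABCC1 (-0.34), MGT2 (-0.29), MGT3 (-0.23), GDH1 (-0.065), SIR (-0.0074), OASA1 (-0.092), NHX1 (-0.038), BOR1 (-0.25), PIP1;5 (-0.17), PIP2;7 (-0.26), AHA10 (-0.45), SCR (-0.41), GL2 (-0.50), APL (-0.036), MYB28 (-0.022), SOT18 (-0.30), PRR7 (-0.018), GAPC2 (-0.34) and SAND (-0.45), and for the median of the calcium, magnesium and manganese list (-0.26). The median of the iron movement list, near 0, became 0.0026 without leaf replicate 3, and that of the sulfate transporters -0.22 within runs 2 to 4; the cause was not tested.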

Other observations

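Specialised metabolism showed the same kind of exchange between related genes. Of 9 genes of aliphatic glucosinolate synthesis 6 were higher in leaf and 2 in root. MYB28 among the 6 took the other sign under library totals and was not called there. CYP79F1, which starts the pathway from methionine derivatives, stood at 0.868, 0.830 and 0.804 CPM in root and 551, 459.5 and 455 CPM in leaf, log2 9.19 ± 0.19. Its neighbour CYP79F2, which prefers longer chains, stood at 141, 159 and 113 CPM in root and 18.03, 17.5 and 19.5 CPM in leaf, log2 -2.90 ± 0.12. MAM1 and MAM3, the chain-elongating synthases, were split likewise, MAM1 at 179 ± 23.6 CPM in root against 677 ± 44.9 CPM in leaf and MAM3 at 623 ± 80.4 CPM in root against 18.6 ± 0.981 CPM in leaf. The regulator MYB29 had 3 reads in root and 4951 in leaf, a ratio of 2465 times (95% interval 843 to 11957), counting error only. Myrosinases, which break glucosinolates down, divided by organ: TGG1 stood at 1.62, 0.776 and 0.997 CPM in root and 1636, 1352 and 1270.4 CPM in leaf and TGG2 at 1.77, 0.723 and 1.32 CPM in root and 1295, 1133 and 1102 CPM in leaf. TGG4 stood at 91.6, 132 and 112 CPM in root and 0, 0.178 and 0.113 CPM in leaf and TGG5 at 91.8, 129 and 111 CPM in root and 0.101, 0.0891 and 0.0750 CPM in leaf. TGG4 and TGG5 share 43.3% and 41.8% of their 31-base words with other places in the genome. Of 5 tested genes of root triterpene synthesis all were higher in root, with the thalianol pathway gene THAD at 49.7 ± 17.8 CPM in root against 0.0793 ± 0.0971 CPM in leaf. Of 9 indole glucosinolate genes 5 were higher in root and 2 in leaf, and past 2-fold 1 was higher in root and 2 in leaf.

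Clock genes differed between the organs although both were harvested at the same hour. CCA1 and LHY, the morning factors, were higher in leaf, CCA1 at 65.4, 50.4 and 54.6 CPM in root and 431, 398 and 353 CPM in leaf, log2 2.79 ± 0.11. LHY stood at 65.4, 54.1 and 50.01 CPM in root and 371, 345 and 342 CPM in leaf. Members of the evening complex were higher in root, ELF3 at 72.8, 68.2 and 72.9 CPM in root and 13.2, 13.3 and 15.4 CPM in leaf, log2 -2.35 ± 0.10, and so was LUX at log2 -2.72 ± 0.15, as were GI at 83.9 ± 5.69 CPM in root against 19.8 ± 3.42 CPM in leaf and TOC1 at 41.8 ± 3.82 CPM in root against 17.05 ± 2.39 CPM in leaf. In all, 5 of 12 were higher in leaf and 7 in root. PRR7 among the 5 took the other sign under library totals and was not called there. All 6 tested pathogen response and defensin genes were higher in leaf, although PDF1.2A, PDF1.2B and PDF1.3 lost their calls within runs 2 to 4 (log2 1.59 to 1.87, adjusted p = 0.148 to 0.219), and PDF1.3 also lost it under voom (adjusted p = 0.118). PR1, the marker of salicylic acid signalling, stood at 0.231, 0.161 and 0.289 CPM in root and 37.4, 57.3 and 91.6 CPM in leaf, log2 8.09 ± 0.40, and the leaf replicates spread over a range of 37.4 to 91.6 CPM. PR2 stood at 1.82, 1.63 and 1.83 CPM in root and 170.0, 219 and 283 CPM in leaf.

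Among gene families found by product name, class III peroxidases leaned to root, with 43 of 60 tested higher in root, 6 in leaf and a median log2 fold change of -4.92. Of 15 laccases 14 were higher in root, with a median of -3.80. Of 168 leucine-rich repeat receptor kinases 97 were higher in root and 48 in leaf, and of 65 NAC factors 35 and 20. Over all genes tested, 41.2% were called toward root and 36.2% toward leaf. Past 2-fold, 73 of the receptor kinases were higher in root and 27 in leaf, and of the NAC factors 29 and 13. Of 247 pentatricopeptide repeat proteins, which process organelle RNA, 115 were called toward leaf and 26 toward root, with a small median of 0.30. Past 2-fold, 44 of the 247 were higher in leaf and 1 in root, against 19.8% and 18.9% of all genes tested. Ribosomal proteins were divided by size of difference, with 183 of 320 called toward root of which 10 passed 2-fold, and 57 called toward leaf of which 40 did; the plastid ribosomal protein RPS1 stood at 28.2 ± 1.21 CPM in root against 439 ± 17.2 CPM in leaf. All 76 tested plastid genome genes were higher in leaf, although they held only 0.00486 to 0.00769% of root reads and 0.119 to 0.157% of leaf reads.

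Of 26710 protein-coding genes matched, 2007 had no read in any of the 12 libraries, and 174 of these (8.67%) share over 50% of their exon bases with another gene, against 653 of 24703 genes with reads (2.64%).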
